A study of Mus musculus with 24 samples.

Results

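Gfap encodes glial fibrillary acidic protein, the intermediate filament protein of astrocytes, and its mRNA is described here in the hippocampus of 12 mice. Gfap is 1 gene of 55291 in the deposited tables, and its members also include 63 peak intervals of 59688 in the 12 deposited peak lists. The gene was selected on values already known from these data: its higher input level in 5xFAD mice and its excess in the antibody fraction over the input. Those 2 measures are therefore given as descriptions without a test. The group differences in enrichment and in peaks are tested below, but they draw on values behind that choice.

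The animals form 3 groups of 4. Untreated wild-type mice were age matched to mice of the 5xFAD genotype, a model in which human amyloid precursor protein and presenilin transgenes with familial Alzheimer mutations are driven by the Thy1 promoter in neurons. One 5xFAD group received vehicle and the other received the compound MS1262. No wild-type group was dosed, so genotype and dosing cannot be told apart against wild-type. From each animal, poly(A) RNA was sequenced before (input) and after (IP) pull-down with an antibody against N6-methyladenosine (m6A), which gives 24 libraries.

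GFAP filaments give the astrocyte its shape, and astrocytes make more of the protein when they become reactive around injury or amyloid plaques. Transcription of the gene is classically driven by the JAK-STAT3 pathway downstream of cytokines of the interleukin 6 family, together with nuclear factor I and SOX9. m6A is a base modification of mRNA that a methyltransferase complex built around METTL3 and METTL14 adds during transcription. It is bound by reader proteins that act on splicing, export, translation and decay.

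Gfap lies on chromosome 11, bases 102887336 to 102897200 of GRCm38, on the minus strand, and spans 9865 bases. The stretch around its start is shown because it carries 1 match to the STAT-type motif TTCNNNGAA, marked in capitals. The peak region called in all 12 animals begins 58 bases inside the gene and lies outside this stretch. The stretch is RefSeq sequence of chr11:102897171-102897450, minus strand, 5′ to 3′, with 250 bases before the start and 30 from it:

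Gfap promoter: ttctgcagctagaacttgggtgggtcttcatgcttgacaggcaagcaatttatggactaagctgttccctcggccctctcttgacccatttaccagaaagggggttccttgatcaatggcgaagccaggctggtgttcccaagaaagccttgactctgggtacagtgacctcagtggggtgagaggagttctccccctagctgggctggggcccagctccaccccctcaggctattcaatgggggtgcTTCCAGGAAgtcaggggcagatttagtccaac

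The match starts 2 bases before the annotated start. The pattern reads the same on both strands, and 8.47% of 27025 RefSeq promoter windows of 300 bases (250 before and 50 after a start) hold at least 1. Among the 28 genes listed as regulators of Gfap, 23 had a window and 3 held a match: Socs3, the feedback inhibitor of JAK-STAT signalling, Nfic, a nuclear factor I family member, and Zbtb20, a transcription factor of the astrocyte lineage. Of the homeostatic astrocyte markers, 2 of 14 held one, including Slc1a3, the glutamate transporter GLAST. The matches of 4 genes are printed with up to 10 flanking bases on each side for comparison with that of Gfap.

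Gfap, chr11:102897184-102897212: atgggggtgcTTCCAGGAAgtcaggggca

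Socs3, chr11:117969502-117969530: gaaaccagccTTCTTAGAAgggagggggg

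Nfic, chr10:81427252-81427280: tgtcggcgatTTCTTTGAAagttggatgc

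Slc1a3, chr15:8710885-8710913: ttcaggatccTTCCAAGAAatttcagtta

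A match is a description of letters and not a bound site. Socs3 was detected at 0.111 TPM (a transcript's share of its library, corrected for length) in wild-type animals, 0.125 in vehicle-treated and 0.0815 in MS1262-treated 5xFAD animals, and Slc1a3 at 471, 472 and 435.

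Depth and sample quality bear on all values. Estimated counts summed to about 20692600 to 43150100 in the input libraries and 3984480 to 48597700 in the IP libraries, the lowest being the IP of vehicle animal 4. Thy1, whose promoter drives the transgenes, stood at 214 to 267 TPM in wild-type inputs and at 599 to 1628 in 5xFAD inputs, higher in every 5xFAD animal than in any wild-type animal. Vehicle animal 3 stood apart: Xist, expressed from the inactive X chromosome, was at 1.29 CPM (counts scaled to library size, not to gene length) in its input against 21.4 to 48.0 in the other 11. The Y chromosome genes Ddx3y and Eif2s3y were at 0 CPM in the input and IP of that animal, as in the other inputs. The choroid plexus gene Ttr was at 7222 TPM in that animal against 34.9 to 781 in the others. The Gfap differences that rest on the vehicle group are also given without it.

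In the input, Gfap was higher in both 5xFAD groups than in wild-type animals. Wild-type animals 1 to 4 had 51.8, 33.0, 17.3 and 30.9 TPM. Vehicle-treated 5xFAD animals had 56.3, 104.7, 46.4 and 129.6 TPM, and MS1262-treated animals had 97.2, 115.0, 67.6 and 74.6 TPM. Vehicle animal 3 lay below the highest wild-type animal, while every MS1262-treated animal lay above it.

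The mean input level was 33.3 ± 14.2 TPM for wild-type animals (SD, n = 4), 84.3 ± 39.5 TPM for the vehicle group and 88.6 ± 21.7 TPM for the MS1262 group. In a quasi-likelihood fit of all 17693 tested genes (edgeR, rounded estimated counts), the vehicle group was 2.87-fold higher than wild-type (log2 1.52, SE 0.35, 95% interval 0.77 to 2.28), and log2 1.72 higher without vehicle animal 3. The MS1262 group was 2.76-fold higher (log2 1.46, SE 0.35, interval 0.71 to 2.21). Both are descriptions that share the wild-type libraries. In bulk tissue, more astrocytes and more Gfap mRNA per astrocyte cannot be told apart.

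Across genes, 278 of 17693 (1.57%) passed an adjusted p of 0.05 between vehicle and wild-type, 187 of them higher, and 230 (1.3%) passed between MS1262 and wild-type, 161 of them higher. On the log2(TPM + 1) scale the calls were split differently, with 60 of 255 and 60 of 124 higher. By mean TPM, Gfap ranked 2725 among all genes in wild-type inputs, 1102 in vehicle and 1100 in MS1262 inputs.

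MS1262 was not associated with a detectable difference in the Gfap level within 5xFAD. The log2 difference between MS1262 and vehicle was -0.06 (SE 0.34, 95% interval -0.79 to 0.67, adjusted p = 0.982, edgeR quasi-likelihood test), an interval that spans 0.576-fold to 1.59-fold. No gene passed in that comparison (0%), and 1003 of 17693 had an unadjusted p under 0.05; DESeq2 also called 0. Leaving out vehicle animal 3 gave -0.27, and leaving out vehicle animal 4, which had the highest level, gave 0.31.

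**Figure D1:**
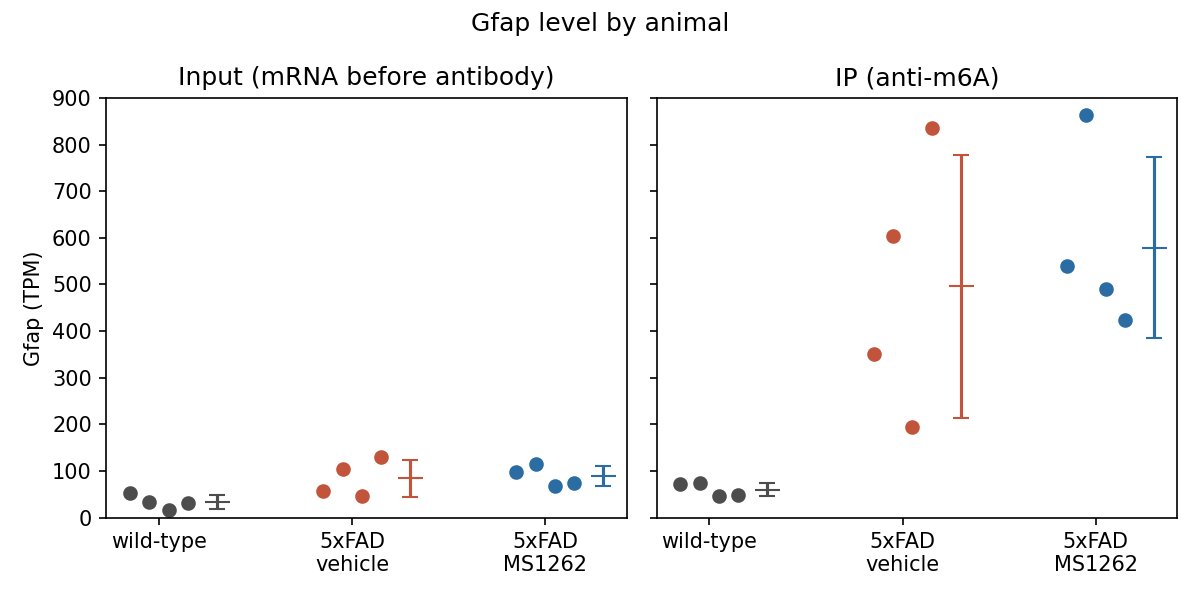
Gfap in TPM (linear axis) in the input and IP libraries of the 12 animals; each point is 1 animal in the order 1 to 4, and the bars give the mean and SD of 4. In the IP the wild-type animals sit between 47.0 and 74.0 and the 5xFAD animals between 193 and 863.

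No homeostatic astrocyte marker passed the test. Of 17 such genes tested, including Aldoc, Ndrg2 and the glutamate transporter genes Slc1a2 and Slc1a3, 0 passed in any of the 3 comparisons. Their median log2 difference was 0.26 between vehicle and wild-type and 0.16 between MS1262 and wild-type, beside medians of 0.01 and 0.00 over all genes. Their summed level was 4181 to 5143 TPM in the wild-type inputs, 4525 to 5389 with vehicle and 4525 to 5053 with MS1262, so the ranges overlapped.

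Aqp4, the astrocyte water channel, had the largest differences of that list, log2 0.53 (SE 0.13, adjusted p = 0.0632, edgeR) and 0.51 (SE 0.13, adjusted p = 0.0719), neither past the threshold. Gfap minus the mean log2 CPM of the 17 markers was -1.02, -1.66, -2.37 and -1.81 in wild-type animals 1 to 4. It was -0.98, -0.10, -1.13 and 0.26 in the vehicle group and -0.28, 0.06, -0.68 and -0.52 in the MS1262 group. Vehicle animal 3 lay within the wild-type range and vehicle animal 1 just above it, while the MS1262 animals all lay above it. The MS1262 minus vehicle difference was 0.13 (p = 0.714, exact permutation test over 70 assignments, two-sided; the smallest p possible is 0.0286). Without vehicle animal 3 it was -0.08 (p = 0.8286, exact permutation test).

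Of the other intermediate filament genes 1 passed, in 1 comparison, beside 1.57% and 1.3% of all genes in the vehicle and MS1262 comparisons. Of 13 listed, 11 were tested, and 0 passed between vehicle and wild-type (median log2 -0.17). Between MS1262 and wild-type 1 passed: Vim, encoding the vimentin that co-assembles with GFAP, was 1.93-fold higher (log2 0.95, SE 0.20, adjusted p = 0.0345, edgeR). Vim was at 14.3, 8.08, 4.69 and 9.43 TPM in wild-type animals, 13.9, 17.3, 9.35 and 7.42 in the vehicle group and 20.7, 18.6, 15.2 and 12.2 in the MS1262 group. The MS1262 and wild-type animals overlapped in TPM, and the call was lost without wild-type 2, 3 or 4 or MS1262 animal 1, 2 or 3 (adjusted p 0.0546 to 0.116).

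In the vehicle comparison Vim had log2 0.65 (adjusted p = 0.158, edgeR). Synm, encoding synemin, which also joins astrocyte filaments, had log2 -0.38 and -0.27 (adjusted p = 0.15 and 0.300). The neurofilament genes Nefl, Nefm, Nefh and Ina ranged from log2 -0.17 to 0.22 in both comparisons, and Prph, the lamin genes Lmna and Lmnb2, the linker Plec and the progenitor filament gene Nes also missed the threshold. Des and Lmnb1 were too low to test.

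Of the listed regulators of Gfap, 27 of 28 were tested and few differed. In vehicle animals 2 passed and in MS1262 animals 1, beside 1.57% and 1.3% of all genes. Osmr, encoding the oncostatin M receptor, was higher in both groups: log2 1.56 (SE 0.29, adjusted p = 0.0157, edgeR) in vehicle and 1.88 (SE 0.30, adjusted p = 0.00513) in MS1262 animals. Its input level was 0.638 to 0.901 TPM in wild-type animals, 1.27 to 3.23 in the vehicle group and 2.18 to 3.83 in the MS1262 group, with no overlap with wild-type. Stat3, the transcription factor of the pathway, was higher in vehicle animals by log2 0.61 (SE 0.14, adjusted p = 0.0460) and had log2 0.61 with an adjusted p of 0.0518 in MS1262 animals.

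The Stat3 call did not survive 10 of the 12 single-animal omissions (adjusted p up to 0.133), and the Osmr call in vehicle was lost without wild-type 1, 3 or 4 or vehicle 2 (up to 0.0593). Other members of the list missed the threshold. Cntf, a ligand of the pathway, had log2 1.07 (adjusted p = 0.0724) and 0.92 (0.121) in the 2 comparisons, and the shared receptor chain gene Il6st had 0.39 (0.127) and 0.32 (0.208). Sox9 had 0.17 and 0.14, Nfia 0.11 and 0.41, and Nfib -0.16 and 0.12. The list medians were 0.11 and 0.12.

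Of 12 genes known to be induced in reactive astrocytes, 11 were tested and 2 passed in each comparison, Osmr being 1 of the 2 in both. The shares over all genes were 1.57% for vehicle and 1.3% for MS1262. Cxcl10, a chemokine gene, was higher in vehicle animals (log2 2.40, SE 0.52, adjusted p = 0.0364, edgeR) at a low level, 0.102 to 0.239 TPM in wild-type and 0.446 to 1.61 in vehicle animals. That call was lost in 10 of 12 single-animal omissions. Vim was the other in MS1262 animals. Serpina3n, a secreted protease inhibitor gene, was the most abundant of the list and had log2 -0.14 and -0.29. The list median was 1.07 (0.75 without vehicle animal 3) and 0.95, and on the log2(TPM + 1) scale 0.36 and 0.24. The summed level of the 12 was 106 ± 35.9 TPM for wild-type inputs (SD, n = 4), 99.1 ± 31.9 with vehicle and 99.3 ± 24.7 with MS1262. Most members were low: Lcn2 was listed at 0 in all wild-type inputs and was not tested for expression.

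Genes whose pattern over the 12 inputs lay nearest to that of Gfap were sought among 11494 candidates. The measure was the root mean square difference of log2 CPM after centring each gene on its own mean. The 10 nearest were Frrs1 (0.28), Cyba, Laptm5, C1qb, Ctsz, Rab7b, Ptpn6, Itgb2, Naip2 and Trem2 (0.40), while Gfap itself had an SD of 0.89 over the 12. Several of them are known from microglia and other myeloid cells: C1qb encodes a complement component, Trem2 a lipid-sensing receptor, and Itgb2 an integrin chain.

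Microglia markers were also higher in the 5xFAD groups. Of 15 listed, 8 rose in vehicle and 9 in MS1262 animals against wild-type and 0 fell. Over all genes, 1.57% and 1.3% passed in either direction. Leaving out single animals gave 5 to 14 and 5 to 12 markers that rose. Tyrobp, the Trem2 adaptor, rose by log2 2.22 (SE 0.34, adjusted p = 0.00482, edgeR) and 2.25 (SE 0.34, adjusted p = 0.00392). The summed level of the 15 was 266 to 302 TPM in the wild-type inputs, 288 to 766 with vehicle and 485 to 630 with MS1262. Vehicle animal 3, the vehicle animal with the least Gfap, also had the lowest microglial sum of that group, and MS1262 animal 2 was highest of its group in both. Vehicle animal 4, with the most Gfap of its group, had a sum of 519 TPM against 766 in vehicle animal 2. MS1262 animal 1 had more Gfap than MS1262 animals 3 and 4 but the lowest sum of its group, 485 TPM. The part of microglia in the Gfap values was not tested.

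Markers of the remaining cell types did not pass against wild-type with 1 exception. Thbs4, listed with neural stem cell genes and also made by astrocytes, was higher in MS1262 animals (log2 0.97, SE 0.22, adjusted p = 0.0440, edgeR), a call lost in 9 of 12 single-animal omissions. Of the choroid plexus list 0 of 10 passed, with summed levels of 315 to 12530 TPM in vehicle and 365 to 1578 in wild-type inputs, the top value being vehicle animal 3. No oligodendrocyte, neuron, ependymal, endothelial and mural, or meningeal marker passed.

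None of the tested genes beside Gfap passed. RefSeq lists 8 other genes within 50 kb, of which 6 are in the table and 4 were tested. Eftud2, a splicing factor gene that ends 6352 bases from Gfap, had log2 0.19 and 0.11 against wild-type in the vehicle and MS1262 groups. Ccdc103, 2120 bases away, had -0.36 and -0.44, Higd1b -0.20 and -0.70, and C1ql1 -0.40 and 0.24, none past the threshold. Fam187a, 605 bases away, averaged 0.121 TPM in wild-type and was listed at 0 in all vehicle inputs. Gm34560, a long noncoding RNA gene 145 bases upstream of the Gfap start, was not measured here.

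In the antibody fraction the Gfap signal of 5xFAD animals stood further above wild-type than in the input. The IP level was 72.1, 74.0, 47.0 and 47.8 TPM in wild-type animals 1 to 4. It was 350, 604, 193 and 836 in the vehicle group and 541, 863, 490 and 424 in the MS1262 group. Every 5xFAD animal lay above every wild-type animal. By mean IP TPM Gfap ranked 2263 among all genes of the wild-type libraries, 251 with vehicle and 179 with MS1262.

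The enrichment, log2 IP over input in CPM, was 0.02, 0.63, 0.72 and 0.10 in wild-type animals 1 to 4. It was 1.93, 1.83, 1.45 and 1.82 in the vehicle group and 2.00, 2.25, 2.19 and 1.91 in the MS1262 group. The lowest 5xFAD animal, vehicle animal 3, was above the highest wild-type animal. In the fit of 24 libraries with the animal as a block, the fitted IP over input ratio was 1.29-fold for wild-type animals. It was 3.39-fold for the vehicle group and 4.25-fold for the MS1262 group, as a description. An enrichment compares Gfap with all other RNA in the same pull-down and is not a count of methylated molecules.

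The difference in enrichment between groups was tested as an interaction over 18300 genes. Vehicle exceeded wild-type by log2 1.39 (SE 0.17, 95% interval 1.03 to 1.75, adjusted p = 0.00210, edgeR quasi-likelihood test). MS1262 exceeded wild-type by log2 1.72 (SE 0.17, interval 1.36 to 2.08, adjusted p = 0.000206). Gfap had the smallest p of the 18300 genes in both comparisons of this fit. Its rank by p was 1 to 6 for vehicle and 1 to 2 for MS1262 without single animals, 8 and 4 with no low-count filter, and 286 and 108 without the animal term. With limma it was 9 and 3 on log2(TPM + 1) and 16 and 3 on log2(TPM + 0.1). Of all genes, 181 (0.989%) and 227 (1.24%) passed, 176 and 223 of them higher. Gfap was chosen with its IP excess over input already known, and the interaction draws on the same values. The p-values and rank of Gfap are therefore not independent evidence.

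Leaving out any 1 of the 12 animals kept the Gfap call in both comparisons, with log2 1.28 to 1.51 for vehicle and 1.61 to 1.84 for MS1262. The values without vehicle animal 3 were 1.496 and 1.73. The call was lost without the animal term (adjusted p = 0.730 and 0.527) and with limma on log2(TPM + 0.1) (0.0750 and 0.135), at differences of 1.49 to 1.80.

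Between MS1262 and vehicle the enrichment of Gfap differed by log2 0.33 (SE 0.17, 95% interval -0.03 to 0.68, unadjusted p = 0.0681, adjusted p = 1, edgeR). Without vehicle animal 3 the difference was 0.23. The MS1262 values, 1.91 to 2.25, overlapped the vehicle values, 1.45 to 1.93. No gene passed in that comparison (0%), with 434 at an unadjusted p under 0.05.

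**Figure D2:**
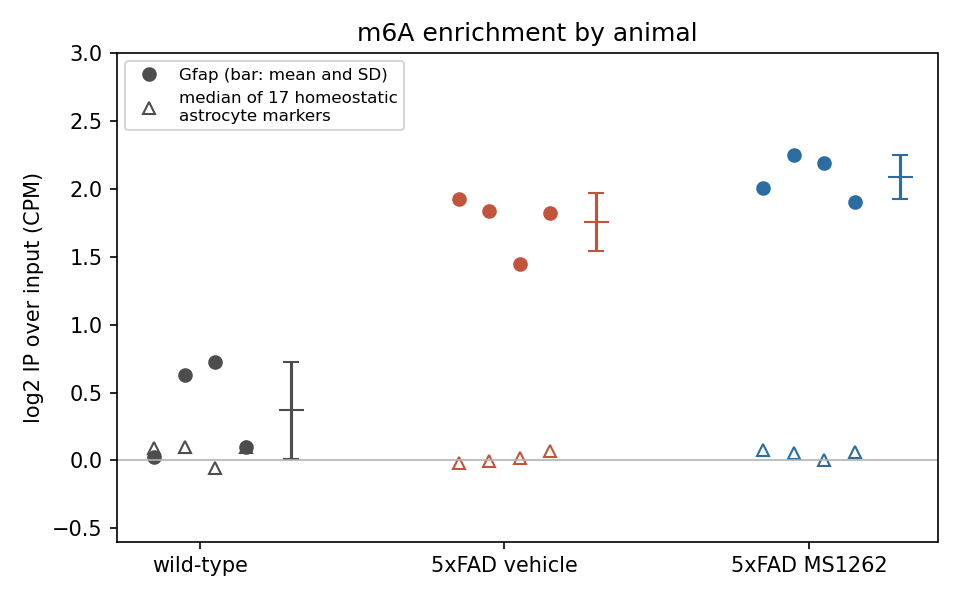
Log2 IP over input by animal for Gfap (filled points, bar: mean and SD of 4) and the median of 17 homeostatic astrocyte markers (open triangles). The Gfap points of 5xFAD animals lie between 1.45 and 2.25 and those of wild-type animals between 0.02 and 0.72, while the marker medians lie between -0.06 and 0.10 in all 12.

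No member of the astrocyte lists passed for enrichment. The homeostatic markers had a median difference of 0.01 for vehicle and -0.07 for MS1262 against wild-type, beside -0.06 and 0.00 over all genes, and 0 of 17 passed. Of the pan-reactive genes 0 of 12 passed (medians -0.28 and -0.05), and of the intermediate filament genes 0 of 11 (medians 0.29 and 0.27). Plec, encoding the linker plectin, had 1.00 (adjusted p = 0.0620) and 0.82 (0.118), and Nefm 0.50 (0.121) and 0.46 (0.133), while Vim had 0.34 (0.523) and 0.18 (0.849).

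Among the Gfap regulators Id3, a target of bone morphogenetic protein signalling, was the only member of 27 that passed. Of all genes, 0.989% passed for vehicle and 1.24% for MS1262. The enrichment of Id3 was 0.24, 0.81, 0.67 and -0.10 in wild-type animals, 1.96, 1.64, 1.31 and 1.82 in the vehicle group and 1.99, 1.84, 2.75 and 2.11 in the MS1262 group. The differences from wild-type were log2 1.28 (adjusted p = 0.0168, edgeR) and 1.76 (adjusted p = 0.00212). The vehicle call was lost without wild-type 1 or 4 or vehicle 1 (adjusted p 0.0831 to 0.0879, edgeR), and the MS1262 call in 0 of 12 omissions. The input level of Id3 did not pass, with log2 0.18 (adjusted p = 0.889) and -0.43 (0.645). Stat3 and Osmr had enrichment differences of -0.19 and -0.10 for vehicle and -0.23 and 0.00 for MS1262.

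Of the 15 microglia markers 2 passed in both comparisons, beside 0.989% of all genes for vehicle and 1.24% for MS1262. Trem2 rose in enrichment by log2 1.37 (adjusted p = 0.00550, edgeR) and 1.29 (adjusted p = 0.00459), and C1qb by 0.80 (adjusted p = 0.0370) and 1.04 (adjusted p = 0.00675). The C1qb call in vehicle was lost in 8 of 12 single-animal omissions. Tyrobp, whose input passed in both comparisons, had enrichment differences of 0.12 and 0.24 that did not pass (adjusted p = 0.879 and 0.826). Both Trem2 and C1qb are also among the 10 genes nearest to Gfap in the input.

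**Figure D3:**
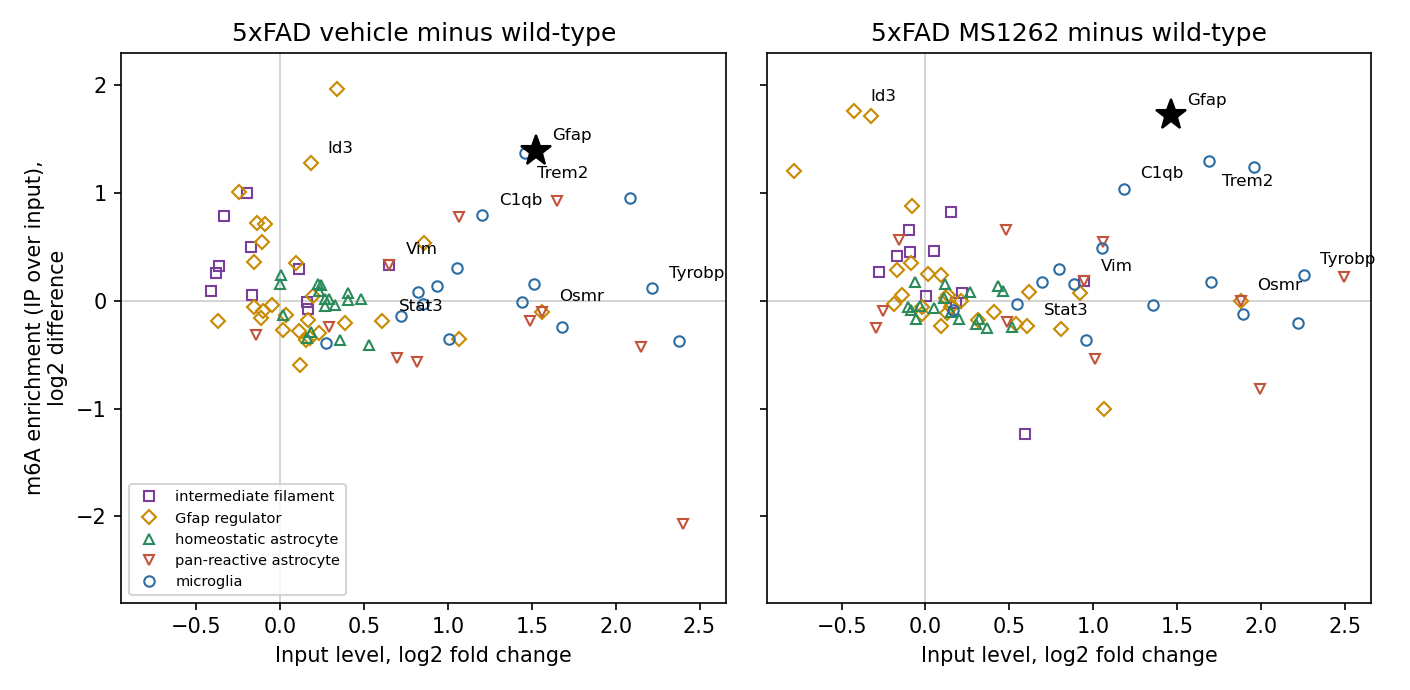
Log2 difference from wild-type in input level (x axis) and in m6A enrichment (y axis) for the tested members of 5 gene lists (open symbols) and Gfap (star), 1 panel per 5xFAD group. Gfap lies at 1.52 and 1.39 in the vehicle panel and at 1.46 and 1.72 in the MS1262 panel, with Trem2 near it. The homeostatic astrocyte markers have medians of 0.26 and 0.01 in the vehicle panel and of 0.16 and -0.07 in the MS1262 panel.

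Peaks mark where along the gene the antibody signal rose above the input. The labels' protocols describe no step that fragments the mRNA ahead of the pull-down, and whether peak positions mark modified bases or the coverage of whole transcripts that carry m6A was not tested. The positions are therefore given as called. The authors called them in each animal separately, IP against that animal's input, with a permissive q-value limit of 0.5, and their fold enrichment is used here as deposited. The 63 Gfap peaks merge into 7 regions, numbered from the gene start, that cover 59.5% of the gene. No exon annotation was used here, so the regions are given by position from the gene start and not by exon, intron or UTR.

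Wild-type animals 1 to 4 had 1, 3, 2 and 1 peaks in Gfap. The vehicle animals had 8, 7, 7 and 6, and each MS1262 animal had 7. The groups did not overlap with wild-type, a difference of 5.25 peaks for each (adjusted p = 0.0429, exact permutation test, two-sided, adjusted over 3 pairs, with 0.0286 the smallest raw p). Of 6311 genes with a peak, 95 (1.51%) had more peaks in every vehicle animal than in any wild-type animal and 219 (3.47%) in every MS1262 animal. Gfap ranked 4th and 6th of the 6311 by its mean gain. The vehicle and MS1262 means were both 7. The Gfap peaks belong to what was selected, with earlier results of these data known. The tests of peak number, length and fold against wild-type are therefore not independent evidence.

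The peaks covered 211, 1487, 800 and 383 bases of Gfap in wild-type animals. They covered 5207, 5323, 4950 and 4528 bases in the vehicle group and 5414, 5605, 5545 and 5464 in the MS1262 group. None of the 3 groups overlapped another, and each pair had the smallest p the design allows (0.0286, exact permutation test, two-sided, 0.0286 after adjustment over 3 pairs). As background, 221 of 6311 genes (3.5%) separated vehicle from wild-type in this way, 456 (7.23%) MS1262 from wild-type and 62 (0.982%) MS1262 above vehicle.

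The gap between MS1262 and vehicle was 505 bases. It had p = 0.0571 to 0.0857 (exact permutation test) when an MS1262 animal was left out, and the difference was 341 bases (p = 0.571) when only peaks of at least 2-fold enrichment were kept. Vehicle animal 4, with the least covered length of the group, had the fewest IP tags, 8594986 against 14758734 to 60372678 in the other 11, and the part of depth in this was not tested.

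The first region, 58 to 679 bases from the start (chr11:102896521-102897142) at its outer bounds over the animals, was called in all 12. Its fold enrichment was 1.83, 2.32, 3.10 and 1.56 in wild-type animals, 2.86, 2.63, 2.97 and 3.39 in the vehicle group and 2.62, 2.80, 2.75 and 2.80 in the MS1262 group. Wild-type animal 3 lay above every 5xFAD animal except vehicle animal 4, so fold enrichment here did not separate the groups. The tag pileup at its summit, which also follows the amount of RNA and the depth, was 99 to 382 in wild-type animals, 450 to 875 in the vehicle group and 784 to 912 in the MS1262 group.

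The second region, 1233 to 1909 bases from the start (chr11:102895291-102895967), was called in all 8 5xFAD animals and in 0 of 4 wild-type animals, and it held the highest fold enrichment of the gene in every 5xFAD animal. The values were 7.16, 5.87, 5.67 and 8.10 in the vehicle group and 5.97, 5.48, 6.63 and 6.58 in the MS1262 group. The summits with the highest fold in each of the 8 animals fell within 14 bases of each other, between 102895633 and 102895647. Further summits of lower fold were called at 102895433 to 102895450 in every vehicle animal and in MS1262 animals 3 and 4. Others lay at 102895949 to 102895951 in vehicle animals 1 and 4 and MS1262 animal 4. Region 3, at 2492 to 2991 bases, and region 6, at 7532 to 7932 bases, were likewise called in all 8 5xFAD animals and in 0 wild-type animals, at 1.59 to 3.49-fold and 1.58 to 2.40-fold.

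Of 13683 merged peaks in the genome, 49 (0.358%) were called in all 8 5xFAD animals and in no wild-type animal, and Gfap held 3 of them. These 3 regions were found by the same lists and are a description. A peak that was not called in a wild-type animal may still carry signal under the limit that the depth and the Gfap level of that animal allow.

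Region 4, at 3449 to 4314 bases, was called in all 8 5xFAD animals and in wild-type animals 2 and 3. Its fold enrichment was 2.55 and 2.78 in those wild-type animals, 1.72 to 2.83 in the vehicle group and 1.53 to 2.09 in the MS1262 group, so the wild-type values were above every MS1262 value. Where a wild-type peak was called in the first region and region 4, its fold was thus within or above the 5xFAD range in at least 1 animal.

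Region 5, at 5694 to 6963 bases, was called in 7 5xFAD animals, at 1.95 to 2.97-fold, and was missing in vehicle animal 4 and in all wild-type animals. Region 7, at 8317 to 9845 bases, reaches to 19 bases from the annotated 3′ end of the gene. It was called in all 8 5xFAD animals, at 2.13 to 3.06-fold, and in wild-type animal 2, at 1.71-fold. Its pileup was 430 to 844 in the vehicle group and 785 to 872 in the MS1262 group, beside 355 in the wild-type animal.

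**Figure D4:**
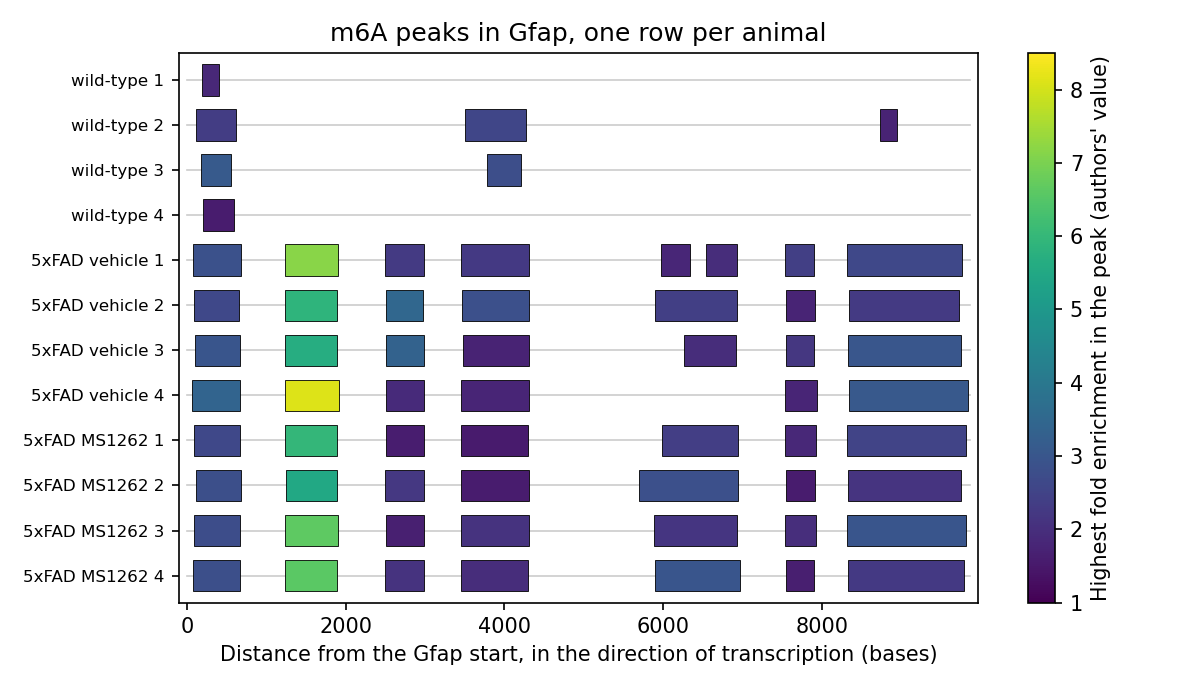
Position of each called peak along Gfap, in bases from the gene start, with 1 row per animal; colour gives the authors' highest fold enrichment in the peak. Wild-type rows hold 1 to 3 peaks and 5xFAD rows 6 to 8, and the second block of every 5xFAD row has the highest fold, 5.48 to 8.10.

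The highest fold enrichment in Gfap per animal was 1.83, 2.55, 3.10 and 1.56 in wild-type animals, and in 5xFAD animals it was the value of the second region. The difference from wild-type was 4.44 for vehicle and 3.90 for MS1262, without overlap (adjusted p = 0.0429 for each, exact permutation test, two-sided, over 3 pairs). MS1262 and vehicle differed by -0.53 (adjusted p = 0.429, exact permutation test), with overlapping values. Without vehicle animal 3 the difference from wild-type was 4.78 for vehicle and that between MS1262 and vehicle -0.88 (adjusted p = 0.286, exact permutation test), while the gain in peaks stayed at 5.25 and the MS1262 minus vehicle covered length was 488 bases.

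**Figure D5:**
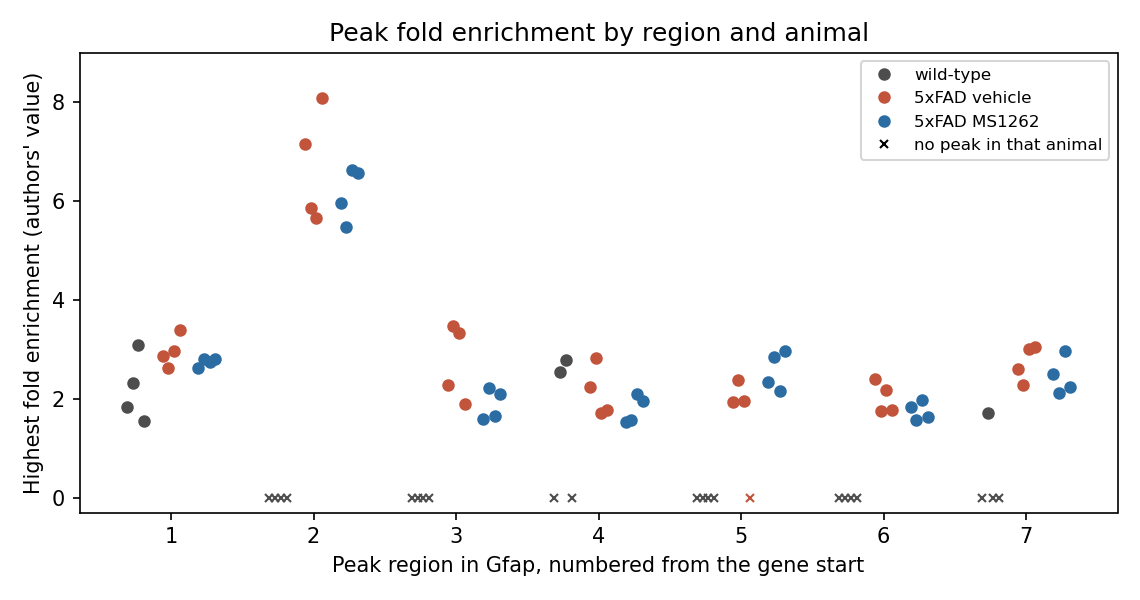
Authors' highest fold enrichment by region, numbered from the gene start, for each animal; crosses at 0 mark animals with no peak in that region. Regions 2, 3, 5 and 6 have no wild-type point. In region 1 wild-type animal 3 lies among the 5xFAD points and wild-type animals 1, 2 and 4 lie below them. In region 4 the points of wild-type animals 2 and 3 lie among those of the vehicle group and above those of the MS1262 group.

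No homeostatic astrocyte marker separated the groups by its number of peaks. Of the 17 homeostatic markers 16 had a peak in some animal, and 0 had more peaks in every 5xFAD animal of a group than in any wild-type animal. Their peaks summed to a mean of 33.8 per wild-type animal, 38.8 per vehicle animal and 35.0 per MS1262 animal. Aldh1l1, a folate enzyme gene used as an astrocyte marker and named after its values were seen, had the highest gain of the list, from a mean of 1.0 peaks in wild-type to 5.75 with vehicle and 4.0 with MS1262, beside 1.75 and 7 for Gfap. Among the intermediate filament genes 5 of 13 had a peak, and Nefm, the medium neurofilament gene, was the 1 that separated the groups, with 0 peaks in wild-type animals and means of 1.25 and 1.00 in the 5xFAD groups. The microglia genes Trem2 and C1qb separated MS1262 from wild-type, as 3.47% of all genes did, with means of 1.5 against 0 and 2.0 against 0.5 peaks, and did not separate vehicle from wild-type.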

How the data were processed

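Hippocampal poly(A) RNA of 12 mice was sequenced as input and anti-m6A IP from SMART-seq libraries, which prime at the poly(A) tail; the labels' protocols name no molecular identifiers, so counting precision covers reads only. The authors deposited estimated counts and TPM per gene and, per the file headers, MACS2 peak lists. Tools listed in the submitters' processing notes include Salmon 1.4.0 and STAR 2.7.6a, besides MACS2 2.1.2, SAMtools 1.10 and Trimmomatic 0.32; the build listed is GRCm38. In the authors' peak lists each row gives a pileup signal, a fold enrichment ratio and −log10 of p and q, called per the file headers for each animal against its own input, with the larger library scaled to the smaller, tags extended to 200 bases and a genome size of 100000000. That genome size is a setting of the authors and bears on p and q values.

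Estimated counts were rounded (8.62% of values were not whole) and fitted with edgeR 4.0.16 (TMM, filterByExpr with a minimum count of 10, R 4.3.3): 12 inputs for expression, and 24 libraries with the animal as a block for IP over input. Adjusted p-values are Benjamini-Hochberg over all tested genes, with a threshold of 0.05. Alternatives used limma 3.58.1 on log2(TPM + 1) and log2(TPM + 0.1) and DESeq2 1.42.0. The functions were tested on simulated data. Peaks overlapping Gfap by at least 1 base were counted, and overlapping peaks of different animals were merged into regions. CPM are TMM-scaled over 24 libraries, with a prior count of 2 for log2 values.

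Input and IP of the same animal correlated best with each other in 12 of 12 animals. Replicate numbers did not pair the groups. The labels say that samples are biological replicates. Gfap, the gene lists and the rules were chosen with earlier results of these data known, so p-values are not independent evidence for the choice. The genes named are Gfap, the tested intermediate filament genes, of each other list up to 4 most abundant and up to 4 that passed, the RefSeq neighbours within 50 kb and the 10 nearest patterns; other list members (Aqp4, Cntf, Il6st, Socs3, Nfic, Zbtb20, Lcn2, Sox9, Nfia) were named after their values were seen. Names matched RefSeq (GRCm38.p6) for 38990 of 55291 genes. Promoter sequences are from RefSeq.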

Additional observations from a re-analysis of the deposited data

Results flagged for a closer look

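The m6A enrichment of Gfap, IP over input, differed between the groups by a test of the interaction. It was higher by log2 1.39 in vehicle-treated 5xFAD than in wild-type animals and by log2 1.72 in MS1262-treated 5xFAD than in wild-type animals, and it was higher in 8 of 8 5xFAD animals than in any wild-type animal. The 2 comparisons share the wild-type libraries, and the gene was chosen with its IP excess over input already known. Of 40 sets of 4 animals examined for a single distant animal (levels, enrichment and peak measures of Gfap), 0 passed Dixon's 95% limit, where chance alone flags about 1 set in 20.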

How the results depend on the processing

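For Gfap, both input differences from wild-type kept their sign and moved by less than the spread between animals (log2 1.29 to 1.53 for vehicle and 1.45 to 1.52 for MS1262 over other settings; 1.16 to 1.85 and 1.27 to 1.81 without single animals). The MS1262 minus vehicle level stayed uncalled, from -0.27 to 0.31 without single animals. With the replicate number as a block, the 3 values were 1.505, 1.52 and 0.01; the numbers share no animal, and 0 of 12 correlations across groups exceeded 0.1 (-0.09 to 0.05). IP over input was 2.01 with limma on log2(TPM + 1) and 2.03 on log2(TPM + 0.1), against 1.404 in CPM; the cause was not tested. Without the animal term the spread between animals enters the error. The enrichment differences were then 1.49 (adjusted p = 0.730, edgeR) for vehicle and 1.80 (0.527) for MS1262. On log2(TPM + 0.1) they were 1.55 (0.0750) and 1.76 (0.135). Without single animals they stayed called. Peak length between MS1262 and vehicle was 341 bases at 2-fold or more, and 347 to 612 without single animals; the other peak results kept their call. On log2(TPM + 0.1) the median of all genes between vehicle and wild-type shifted to -0.14.

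Counts of genes moved more. For expression in vehicle, 278 became 610 with DESeq2, 134 with the replicate block, 118 with only the 2 groups compared and 108 to 297 without single animals. For expression in MS1262, 230 became 635 with DESeq2, 168 with the replicate block, 124 and 145 in TPM and 105 to 287 without single animals. For enrichment in vehicle, 181 became 489 with no low-count filter, 0 without the animal term, 33 and 0 in TPM and 33 to 408 without single animals. For enrichment in MS1262, 227 became 502, 1, 3 and 0 under the same settings and 58 to 858 without single animals. For MS1262 against vehicle, 0 became 42 in enrichment with no low-count filter, and up to 2 in expression without single animals. Among omissions of single animals, the highest enrichment counts were reached without vehicle animal 4, whose IP was the shallowest at about 3984480 counts. Low counts limit Cxcl10, Socs3 and Lcn2.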
